A study of Mus musculus with 6 samples.

Results

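The miR-181 family was measured in small RNA-seq libraries of whole brain from wild-type C57BL/6 mouse embryos at E15.5, in 6 libraries (3 per sex), each made from the pooled RNA of several embryos of one sex. No group carried a treatment or an altered allele, and sex was read from the presence of testicular cords in the gonad. The family was taken as 9 mature miRNAs, picked by name from the 1915 that each library lists. These are the guide and passenger arms of 3 genomic clusters (miR-181a-1/b-1, miR-181a-2/b-2 and miR-181c/d), and all 9 had at least 10 reads in every library. Values per library are listed in the order of libraries 1, 2 and 3 of a sex. The only comparison that the design allows is male against female, and it asked whether the family is sex-biased at this stage.

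A miRNA precursor is a hairpin that is cut into a 5' arm (5p) and a 3' arm (3p), of which the guide arm is loaded into the silencing complex and the passenger arm is mostly degraded. The guide pairs with target mRNAs mainly through its seed, bases 2 to 8. In the miR-181 family the guides are the 5p arms. miR-181a and miR-181b are known from T cell and B cell development and are abundant in the vertebrate brain and retina, where miR-181a has been studied in neurons for its effect on glutamate receptors.

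The 4 guides are shown with the seed in capitals, because it is the part that they share (mature sequences from RefSeq, GRCm38.p6, all 9 members matched).
mmu-miR-181a-5p: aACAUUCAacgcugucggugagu
mmu-miR-181b-5p: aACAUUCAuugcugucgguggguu
mmu-miR-181c-5p: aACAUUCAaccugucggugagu
mmu-miR-181d-5p: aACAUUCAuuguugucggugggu
All 4 have the seed ACAUUCA, and no other mature miRNA in the RefSeq table has it. Counted from the 5' end, miR-181d-5p differs from miR-181b-5p by 1 substitution (C12U) and by 1 base in length, and miR-181a-5p is 1 edit away from miR-181c-5p. Reads of miRNAs that differ by a substitution can be split between them when mismatches are allowed in mapping. The counts of miR-181b-5p against miR-181d-5p are uncertain to that extent. The edit between miR-181a-5p and miR-181c-5p is an added base and not a substitution, so an allowed mismatch does not bear on them in this way. Whether their reads were split was not tested.

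The 5 passenger arms are shown in the same way, because they tell apart loci whose guides are identical.
mmu-miR-181a-1-3p: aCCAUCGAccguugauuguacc
mmu-miR-181a-2-3p: aCCACCGAccguugacuguacc
mmu-miR-181b-1-3p: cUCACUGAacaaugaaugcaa
mmu-miR-181b-2-3p: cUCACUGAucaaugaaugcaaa
mmu-miR-181c-3p: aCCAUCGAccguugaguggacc
From miR-181a-1-3p to miR-181a-2-3p there are 2 substitutions (U5C and U16C), and the seeds differ. From miR-181b-1-3p to miR-181b-2-3p there is 1 substitution (A9U), outside the seed, and 1 base more. Their GC contents were 38.1% and 36.4%. Mapping that allows a mismatch could also split reads between these arms, so their separate counts carry the same uncertainty. The seed of miR-181a-1-3p is also that of miR-181c-3p, from which it differs by 2 substitutions (U16G and U19G).

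In mm9, the build to which the authors mapped, miR-181a-5p can arise from Mir181a-1 (chr1:139863032-139863118, forward strand) and from Mir181a-2 (chr2:38708255-38708330, forward strand). miR-181b-5p can arise from Mir181b-1 (chr1:139863216-139863295, forward strand) and from Mir181b-2 (chr2:38709350-38709438, forward strand). A read of either guide therefore does not show its locus. The chromosome 1 hairpins lie 97 bases apart and overlap no other annotated gene in GENCODE vM1. The chromosome 2 hairpins lie 1019 bases apart within an intron of Nr6a1, on the strand opposite to that gene. The nearest gene that does not overlap them is Gm13507, annotated as a processed transcript on the same strand, 365 bases from Mir181a-2. Mir181c (chr8:86702762-86702867) and Mir181d (chr8:86702615-86702686) lie on the reverse strand, 75 bases apart, and the nearest other gene is Nanos3, 2164 bases from Mir181d.

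Both miR-181b hairpins are given from mm9 with the arms in capitals, since the results below turn on their 3p arms.
Mir181b-1: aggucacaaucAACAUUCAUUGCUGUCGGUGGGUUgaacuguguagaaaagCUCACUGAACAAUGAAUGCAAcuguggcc
Mir181b-2: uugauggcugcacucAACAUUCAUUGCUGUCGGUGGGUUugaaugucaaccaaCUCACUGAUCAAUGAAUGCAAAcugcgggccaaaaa
The 5p arm is the same in both, whereas the 3p arm is specific to its hairpin.

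Library totals ranged from 14802675 to 59362011 reads on miRNAs. Female library 2 had the highest total and the fewest miRNAs with a read (660, against 790 to 915 in the other 5 libraries), so several results that rest on it are also given without it. The 12 guide arms listed as brain miRNAs (miR-9-5p, miR-124-3p and others) summed to between 301504 and 322120.5 reads per 1000000 reads of the library (CPM) in female libraries and between 265520.2 and 291934 CPM in male libraries. None of the 12 was at 0 in all libraries of a sex. The 4 skeletal muscle miRNAs summed to between 388 and 1180.1 CPM in females and between 5497 and 6139 CPM in males. The 6 epithelial miRNAs summed to between 429 and 1133 CPM in females and between 7989.5 and 8284 CPM in males. The 6 leukocyte miRNAs overlapped between the sexes, with 287 to 476 CPM in females and 396 to 528 CPM in males, and none of these markers was at 0 in all libraries of a sex. The red blood cell list summed to 673 to 1367 CPM in females and 1605 to 1984 CPM in males, and the vascular list to 7714 to 14683 CPM and 6031 to 8155 CPM. In the test described below, 0 of 6 leukocyte miRNAs passed the threshold, while 1 of 4 of the red blood cell list was higher in males and 2 of 4 of the vascular list were higher in females. Over all miRNAs tested, 8.48% passed, with 3.21% higher in males and 5.27% higher in females, so counts of 0 or 1 in lists this short are near that share. The labels name no batch. The libraries come from bulk tissue, so fewer cells of a type and less RNA per cell cannot be told apart.

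The family took 5.75% of the reads on average, with 5.29%, 4.80% and 5.41% for the females and 7.59%, 5.88% and 5.50% for the males. No female library reached the lowest male library on this scale, which divides by the library total (two-sided exact permutation test, p = 0.1, the smallest that 3 libraries against 3 can give). Male library 1 was the highest. miR-181a-5p supplied between 69.0% and 75.5% of the family's reads in each library, and the 5 passenger arms together between 0.516% and 1.09%.

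The levels spanned more than 3 orders of magnitude, from miR-181a-5p with a mean of 41449.9 CPM to miR-181b-2-3p with 8.89 CPM. A read covers a whole mature miRNA of 21 to 24 bases, so CPM were compared between members without a length term. No correction was made for how well each sequence enters a library, so the order is one of reads. The order was miR-181a-5p, miR-181b-5p, miR-181d-5p, miR-181c-5p, miR-181a-1-3p, miR-181c-3p, miR-181b-1-3p, miR-181a-2-3p and miR-181b-2-3p. Down to miR-181a-1-3p, each member lay above the next in all 6 libraries, and the ranges over the libraries did not overlap. miR-181a-1-3p and miR-181c-3p could not be ordered, since the former was the higher in 3 of 6 libraries. miR-181a-2-3p and miR-181b-2-3p could not be ordered either, with the former higher in 2 of 6 libraries. miR-181b-1-3p lay above miR-181a-2-3p in all 6 libraries, by between 1.24 and 5.88 times, although their ranges overlapped.

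**Figure D1:**
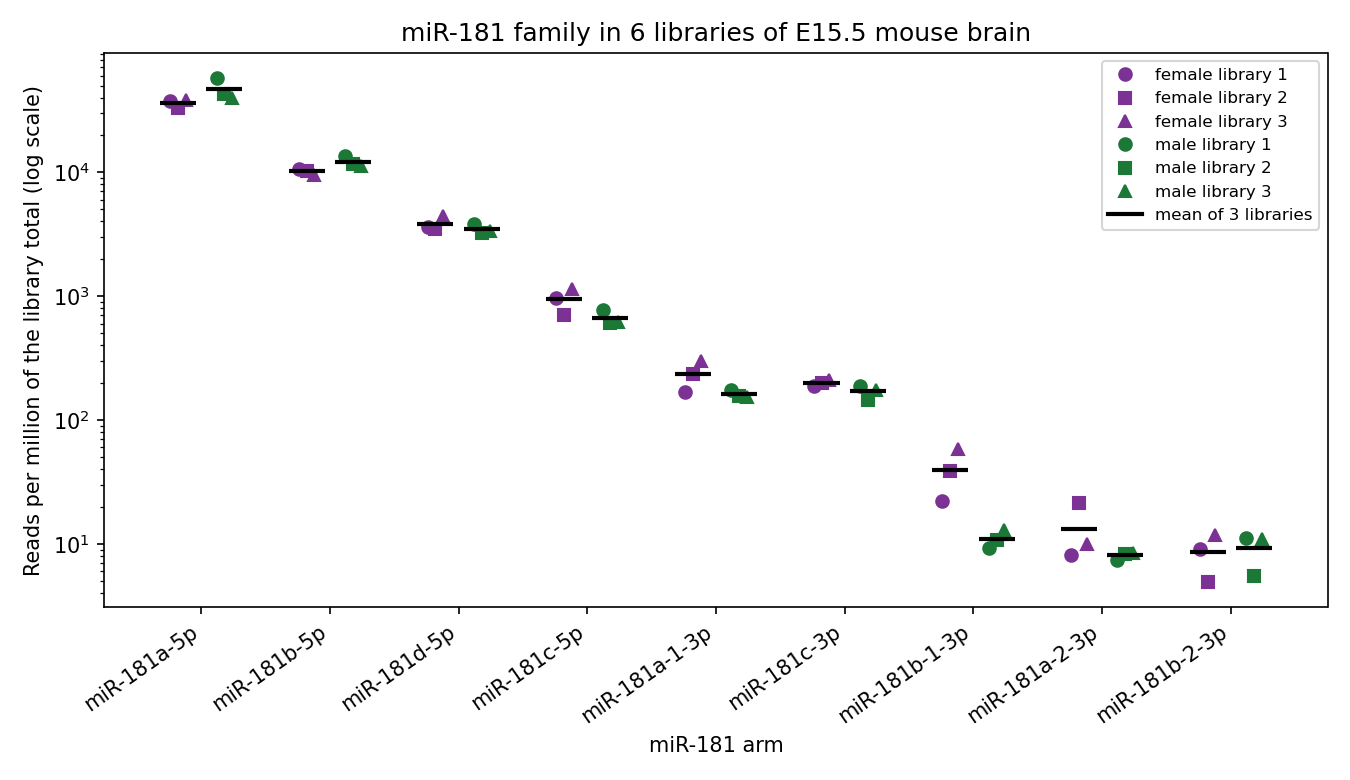
Level of each miR-181 arm in each library, in CPM of the library total on a log scale, with female libraries in purple, male libraries in green and a black bar at the mean of 3 libraries. miR-181b-1-3p ranged from 22.0 to 58.2 CPM in females and from 9.26 to 13.0 CPM in males, while miR-181b-2-3p lay between 4.90 and 11.7 CPM in both sexes.

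For the test of sex, counts were scaled by edgeR's TMM method, and edgeR's quasi-likelihood test was run on the 1120 miRNAs with at least 10 reads in all, with Benjamini-Hochberg adjustment over these 1120. Log2 fold changes are male over female, with their standard error (SE), and a miRNA was called sex-biased at an adjusted p below 0.05. Of the 9 members, 2 were called, both higher in females (miR-181b-1-3p and miR-181c-5p). Over all miRNAs tested, 95 or 8.48% were called, of which 59 were higher in females (5.27% of those tested) and 36 higher in males (3.21%). With scaling by library size alone, that split was 39 and 50, and of the members miR-181b-1-3p alone was called. With 1 RUVr factor, which removes unwanted variation estimated from residuals, edgeR called 3 of the 9 members, all higher in females, against 16.9% of all miRNAs (8.66% higher in females, 8.21% in males). DESeq2 with such a factor also called 3, against 19.3% (8.93% higher in females, 10.4% in males). Without female library 2, edgeR called 3, against 18.3% (10.5% higher in females, 7.84% in males). Without female library 3 it called 0 of the 9, against 5.66% of all miRNAs, and without male library 1 also 0, against 2.73%. Where 3 were called in these fits, they were miR-181b-1-3p, miR-181c-5p and miR-181a-1-3p. The median log2 fold change was -0.37 over the 9 members and -0.02 over all miRNAs tested.

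The largest sex difference among the 9 was that of mmu-miR-181b-1-3p, the passenger arm of the chromosome 1 copy of miR-181b. It was measured at 22.0, 38.9 and 58.2 CPM for the females and 9.26, 10.8 and 13.0 CPM for the males. The sexes did not overlap, and the spread was wider among females (39.7 ± 18.1 CPM, SD, n = 3) than among males (11.0 ± 1.90 CPM, SD, n = 3). The log2 fold change was -1.97 (edgeR, SE 0.42, adjusted p = 0.00252), a level 3.93 times higher in females. It rested on 173 to 2307 reads per library. In male library 1, the lowest, the exact 95% interval for counting error was 7.93 to 10.7 CPM.

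The call of miR-181b-1-3p was lost in 2 of the 6 fits on 5 libraries, where edgeR gave an adjusted p of 0.0578 without female library 3 and 0.105 without male library 1. Its log2 fold change stayed between -2.23 and -1.63 in those 6 fits, and it was -1.93 without female library 2. The sums of the skeletal muscle and epithelial miRNAs, given above, were higher in every male library, with 4 of 4 and 5 of 6 of these miRNAs called higher in males, and their part in this difference was not tested.

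The passenger arm of the other copy, mmu-miR-181b-2-3p, stood at 9.12, 4.90 and 11.7 CPM for the females and 11.2, 5.49 and 11.0 CPM for the males. The sexes overlapped, and library 2 was the lowest of each sex. Its log2 fold change was -0.02 (edgeR, SE 0.67, adjusted p = 0.998), with a 95% interval from -1.40 to 1.35, which includes changes of over 2-fold in either direction. The sign of this value changed with the scaling, for example to 0.10 with library size alone.

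Within a library, the ratio of the arms needs no scaling between libraries. Per read of miR-181b-2-3p there were 2.41, 7.93 and 4.98 reads of miR-181b-1-3p for the females, against 0.828, 1.96 and 1.19 for the males. Every female library lay above every male library, and the mean log2 ratio was lower in males by 1.87 (2.19 ± 0.87 in females, 0.32 ± 0.63 in males, SD, n = 3). With a library left out, the difference, male minus female, ranged from -2.34 to -1.48, the latter without female library 2. Expressed as a share, Mir181b-1 supplied 80.9% ± 9.30 of the miR-181b 3p reads for the females and 55.3% ± 10.5 for the males (SD over 3 libraries each). The two-sided exact permutation test on the ratio gave p = 0.1, its smallest possible value, and 0.180 after Benjamini-Hochberg adjustment over the 9 ratios examined.

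mmu-miR-181a-1-3p comes from the hairpin next to Mir181b-1. It was measured at 168, 235 and 298 CPM for the females and 174, 155 and 153 CPM for the males. The means were 234 ± 64.9 CPM and 161 ± 11.7 CPM (SD, n = 3). Female library 1 lay below male library 1 on this scale, whereas with TMM scaling the sexes did not overlap. The log2 fold change was -0.67 (edgeR, SE 0.23, adjusted p = 0.0716), which did not pass the threshold. It passed in 6 of 17 alternatives, including without female library 2 (adjusted p = 0.0219) and with 1 RUVr factor in edgeR and in DESeq2.

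The ratio of miR-181a-1-3p to miR-181b-1-3p was 7.67, 6.04 and 5.12 for the females and 18.8, 14.4 and 11.8 for the males. The sexes did not overlap, with a mean log2 ratio higher in males by 1.25 (two-sided exact permutation test, p = 0.1, adjusted p = 0.180).

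For miR-181a the chromosome 1 locus supplied nearly all of the 3p reads, with 94.6% ± 2.61 for the females and 95.2% ± 0.621 for the males (SD over 3 libraries each), which differed by less than 1 SD of the female libraries (exact permutation test, two-sided, p = 0.9). mmu-miR-181a-2-3p was measured at 8.11, 21.2 and 9.89 CPM for the females and 7.44, 8.31 and 8.46 CPM for the males. Female library 2 stood apart, with 1256 reads, and the other 5 libraries lay between 7.44 and 9.89 CPM. The log2 fold change was -0.85 (edgeR, SE 0.62, adjusted p = 0.480), and it was -0.22 without female library 2. The ratio of miR-181a-2-3p to miR-181b-2-3p was likewise 4.32 in that library and between 0.665 and 1.51 in the others.

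mmu-miR-181a-5p, the most abundant member, was measured at 37273, 33100.2 and 38409 CPM for the females and 57345, 43086 and 39486 CPM for the males. The sexes did not overlap on this scale, with male library 1 the highest, but they overlapped after TMM scaling. The means were 36261 ± 2796 CPM in females and 46639 ± 9445 CPM in males (SD, n = 3). The log2 fold change was 0.23 (edgeR, SE 0.27, adjusted p = 0.710), with a 95% interval from -0.33 to 0.78. Among all miRNAs it ranked between 3 and 4 in each library.

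mmu-miR-181b-5p was the next in level, at 10648, 10199 and 9539 CPM for the females and 13597, 11567 and 11234 CPM for the males. Here too the sexes stood apart by library total and overlapped after TMM scaling, with a log2 fold change of 0.13 (edgeR, SE 0.23, adjusted p = 0.833). The ratio of miR-181a-5p to miR-181b-5p lay between 3.25 and 4.22 in all libraries and overlapped between the sexes.

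The passenger arms of miR-181a and miR-181b were also set against their guides within each library. The miR-181b 3p arms together had 0.00292, 0.00429 and 0.00732 reads per read of miR-181b-5p for the females and 0.00150, 0.00141 and 0.00214 for the males. The mean log2 ratio was lower in males by 1.45 for miR-181b and by 0.86 for miR-181a, with no overlap in either (two-sided exact permutation test, p = 0.1 for each, adjusted p = 0.180). For comparison, over 254 pairs of 5p and 3p arms that share a name, with a mean of at least 10 reads on both, the log2 fold change of the less abundant arm minus that of the more abundant arm had a median of 0.03 and quartiles of -0.75 and 0.69. The 3p arms of miR-181a and miR-181b carry a locus number that their guides lack, so they are not among these pairs. Against their guides, that difference was -2.10 for miR-181b-1-3p, -1.08 for miR-181a-2-3p, -0.90 for miR-181a-1-3p, -0.15 for miR-181b-2-3p and 0.25 for miR-181c-3p. The value of miR-181a-2-3p leaned on female library 2. Without that library, the log2 fold change was -0.22 for miR-181a-2-3p and 0.22 for miR-181a-5p. The guides of miR-181a and miR-181b pool the reads of both their loci.

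**Figure D2:**
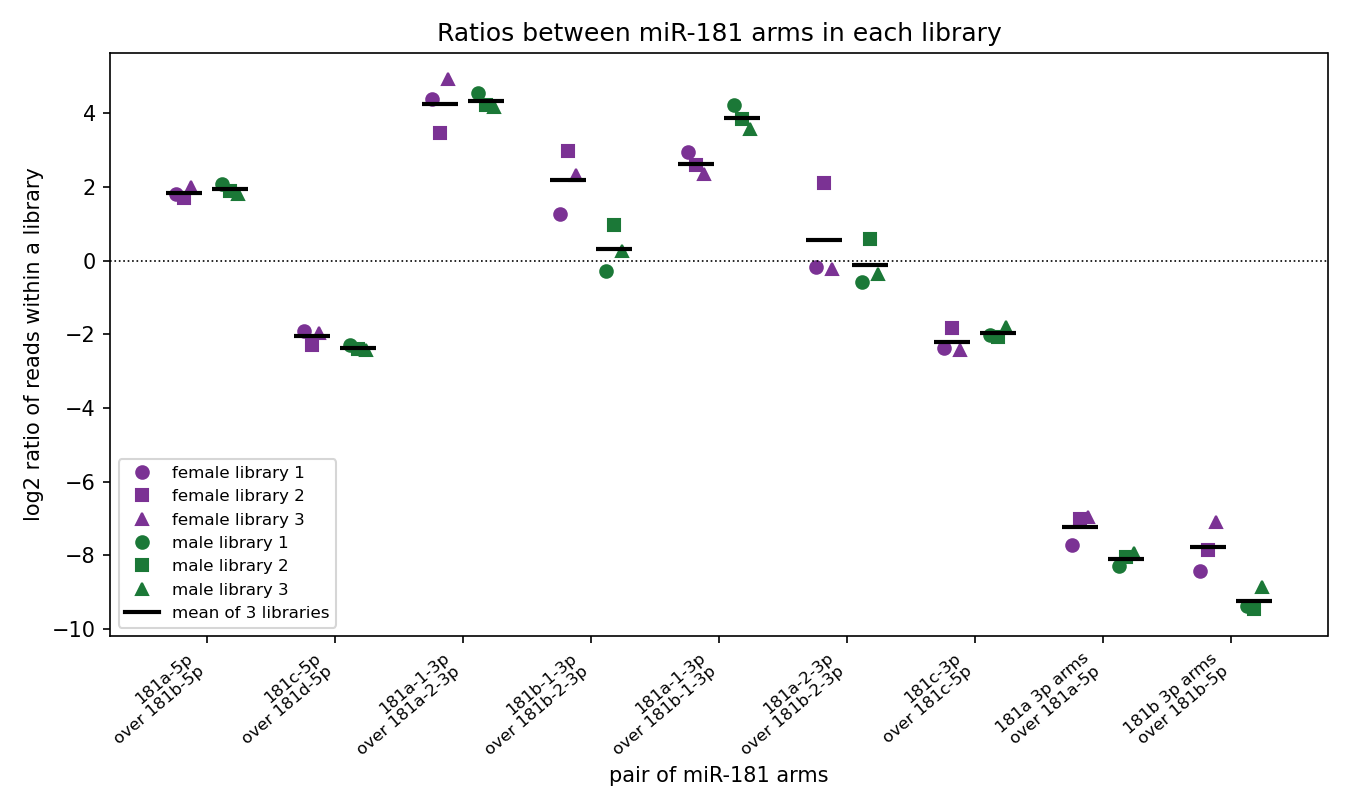
Log2 ratio of reads of pairs of miR-181 arms within each library, with female libraries in purple, male libraries in green and a black bar at the mean of 3 libraries. Of the 9 ratios, 5 have no overlap between the sexes, among them miR-181b-1-3p over miR-181b-2-3p, whose mean log2 ratio is 2.19 in females and 0.32 in males.

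In the chromosome 8 cluster, mmu-miR-181c-5p was the second member called. It was measured at 973, 708 and 1141 CPM for the females and 772, 609 and 619 CPM for the males. The means were 940.4 ± 218 CPM and 667 ± 91.5 CPM (SD, n = 3). Female library 2 lay below male library 1 by library total, and the sexes did not overlap after TMM scaling. The log2 fold change was -0.62 (edgeR, SE 0.19, adjusted p = 0.0458). This call was lost with other scalings in edgeR and in 5 of the 6 fits on 5 libraries. In those 6 fits, the adjusted p from edgeR ranged from 0.00109 without female library 2 to 0.236 without male library 3. The log2 fold change of miR-181c-5p was between -0.74 and -0.48 in the same 6 fits and between -0.59 and -0.50 with other scalings in edgeR. The call was kept in 5 of 17 alternatives, among them DESeq2 (adjusted p = 0.0422) and 1 RUVr factor in edgeR (adjusted p = 0.00181) and in DESeq2 (adjusted p = 0.00214).

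The other arm of Mir181c, mmu-miR-181c-3p, was measured at 188, 200.1 and 211 CPM for the females and 189, 144 and 176 CPM for the males. Its log2 fold change was -0.37 (edgeR, SE 0.21, adjusted p = 0.360). It was less unequal to its guide than the other 3p arms, with 0.185 to 0.285 reads per read of miR-181c-5p and overlap between the sexes. With an offset for GC content, the call of miR-181c-3p was gained (log2 fold change -0.80, adjusted p = 0.00958) and that of miR-181c-5p was lost (log2 fold change -0.50, adjusted p = 0.136).

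mmu-miR-181d-5p was measured at 3636, 3448 and 4453 CPM for the females and 3808, 3246 and 3343 CPM for the males. The sexes overlapped by library total but not after TMM scaling, and its log2 fold change was -0.28 (edgeR, SE 0.20, adjusted p = 0.480). miR-181c-5p had 0.267, 0.205 and 0.256 reads per read of miR-181d-5p for the females and 0.203, 0.188 and 0.185 for the males. The sexes did not overlap in this ratio, although female library 2 and male library 1 nearly met (two-sided exact permutation test, p = 0.1, adjusted p = 0.180). The passenger arm of Mir181d, miR-181d-3p, is not among the 9 and is named after its values were seen. It had 11.8 to 24.6 CPM and a log2 fold change of -0.01 (edgeR, SE 0.50).

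With TMM scaling, 5 of the 9 members (miR-181a-1-3p, miR-181b-1-3p, miR-181c-5p, miR-181c-3p and miR-181d-5p) had no overlap between the sexes, all higher in females, against 11.9% of all miRNAs in that direction and 23.8% in either. By library total, 3 of the 9 had no overlap, namely miR-181b-1-3p, higher in females, and miR-181a-5p and miR-181b-5p, higher in males, against 23.9% of all miRNAs. Whether the sexes overlapped in miR-181a-5p and miR-181b-5p thus depended on the scaling.

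**Figure D3:**
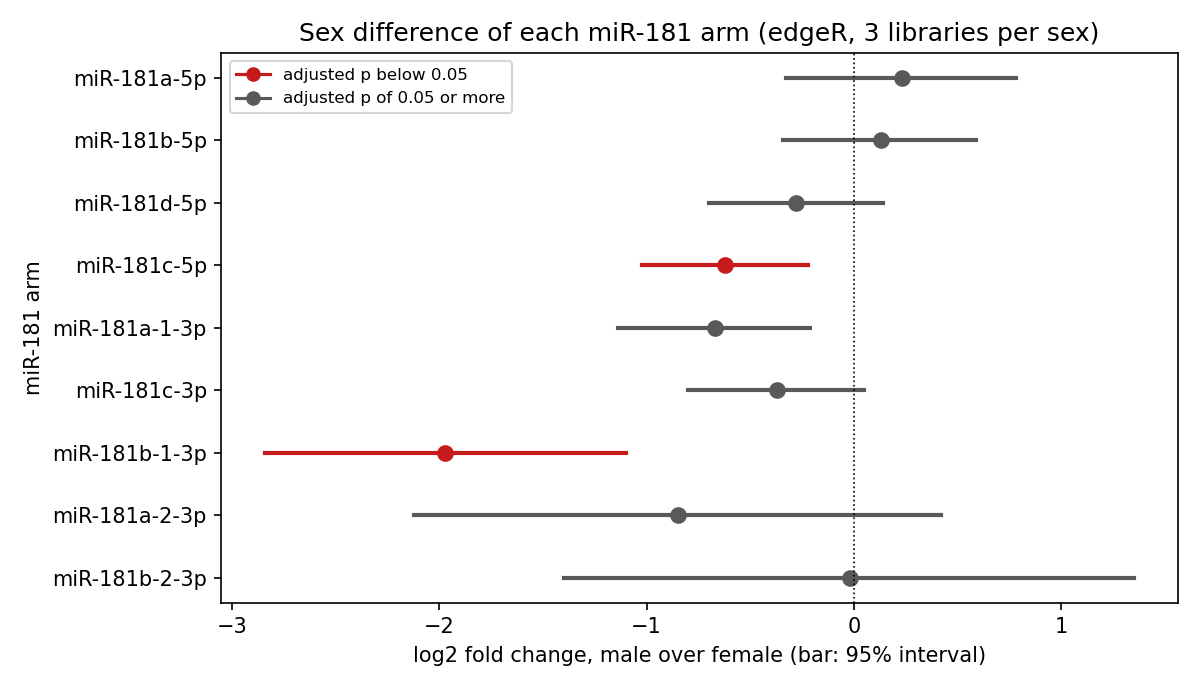
Log2 fold change, male over female, of each miR-181 arm with its 95% interval from edgeR's quasi-likelihood test on 3 libraries per sex, in red where the adjusted p is below 0.05. The 2 red members, miR-181b-1-3p at -1.97 and miR-181c-5p at -0.62, lie on the female side, and the intervals of miR-181a-5p and miR-181b-5p include 0.

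As a description, levels were compared across the 6 libraries, in each of which all miRNAs are divided by the same total. miR-181a-5p and miR-181b-5p had a Pearson correlation of 0.89 in log2 CPM, as had miR-181c-5p and miR-181d-5p. The 3p arms of the chromosome 1 cluster, miR-181a-1-3p and miR-181b-1-3p, had 0.90. Those of the chromosome 2 cluster, miR-181a-2-3p and miR-181b-2-3p, had -0.64. Female library 2 had the highest level of the former (21.2 CPM) and the lowest of the latter (4.90 CPM). That correlation was not computed without this library, so it does not show that these arms move oppositely. miR-181b-5p and miR-181b-1-3p had -0.90. Of the 544 non-members that averaged 100 reads or more, those most like the summed guides were miR-6958-3p (0.971), miR-34a-5p (0.968) and miR-134-5p (0.967). Most like the summed 3p arms were miR-433-5p (0.968), miR-369-5p (0.952) and miR-325-3p (0.945).

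Among these 6, miR-369-5p had an adjusted p below 0.05 in edgeR, and the other 5 did not. The 6 were picked by their profile over the same libraries, in which neither sum overlapped between the sexes. Their sex differences are therefore a description and not an independent result. miR-369-5p stood at 213, 318 and 537 CPM for the females and 159, 116 and 95.0 CPM for the males. Its log2 fold change was -1.67 (edgeR, SE 0.27, adjusted p = 9.6e-05).

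Other miRNAs of the embryonic brain were counted in the same fit. Of 12 brain guide arms, 6 were called higher in females, against 5.27% of all miRNAs tested and 12.4% of the 550 with at least 10 reads in every library. None was called higher in males, and the median log2 fold change was -0.90. Those 6 were miR-137-3p (-1.55), miR-138-5p (-0.99), miR-153-3p (-3.15), miR-218-5p (-0.82), miR-7a-5p (-1.24) and miR-135a-5p (-1.34). They are known for roles in neuronal differentiation, dendritic spines and motor neurons. Of 18 brain passenger arms tested, 2 were called higher in females (miR-9-3p at -1.20 and miR-219a-2-3p at -0.90) and none in males, with a median of -0.17. A count of 2 in 18 is near the share over all miRNAs and is not a result about these arms.

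A neighbouring miRNA cluster of miR-181c/d is that of Mir23a, Mir27a and Mir24-2, which begins 29549 bases from Mir181c on the opposite strand. None of its 6 mature miRNAs passed the threshold, and their log2 fold changes were 0.50 for miR-23a-3p, 1.41 for miR-23a-5p, -0.49 for miR-27a-3p, 1.49 for miR-27a-5p, -0.57 for miR-24-3p and -0.43 for miR-24-2-5p. The adjusted p from edgeR ranged from 0.129 for miR-23a-3p upwards. miR-24-3p can also come from another locus. The difference between this cluster and miR-181c/d was not tested.

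**Figure D4:**
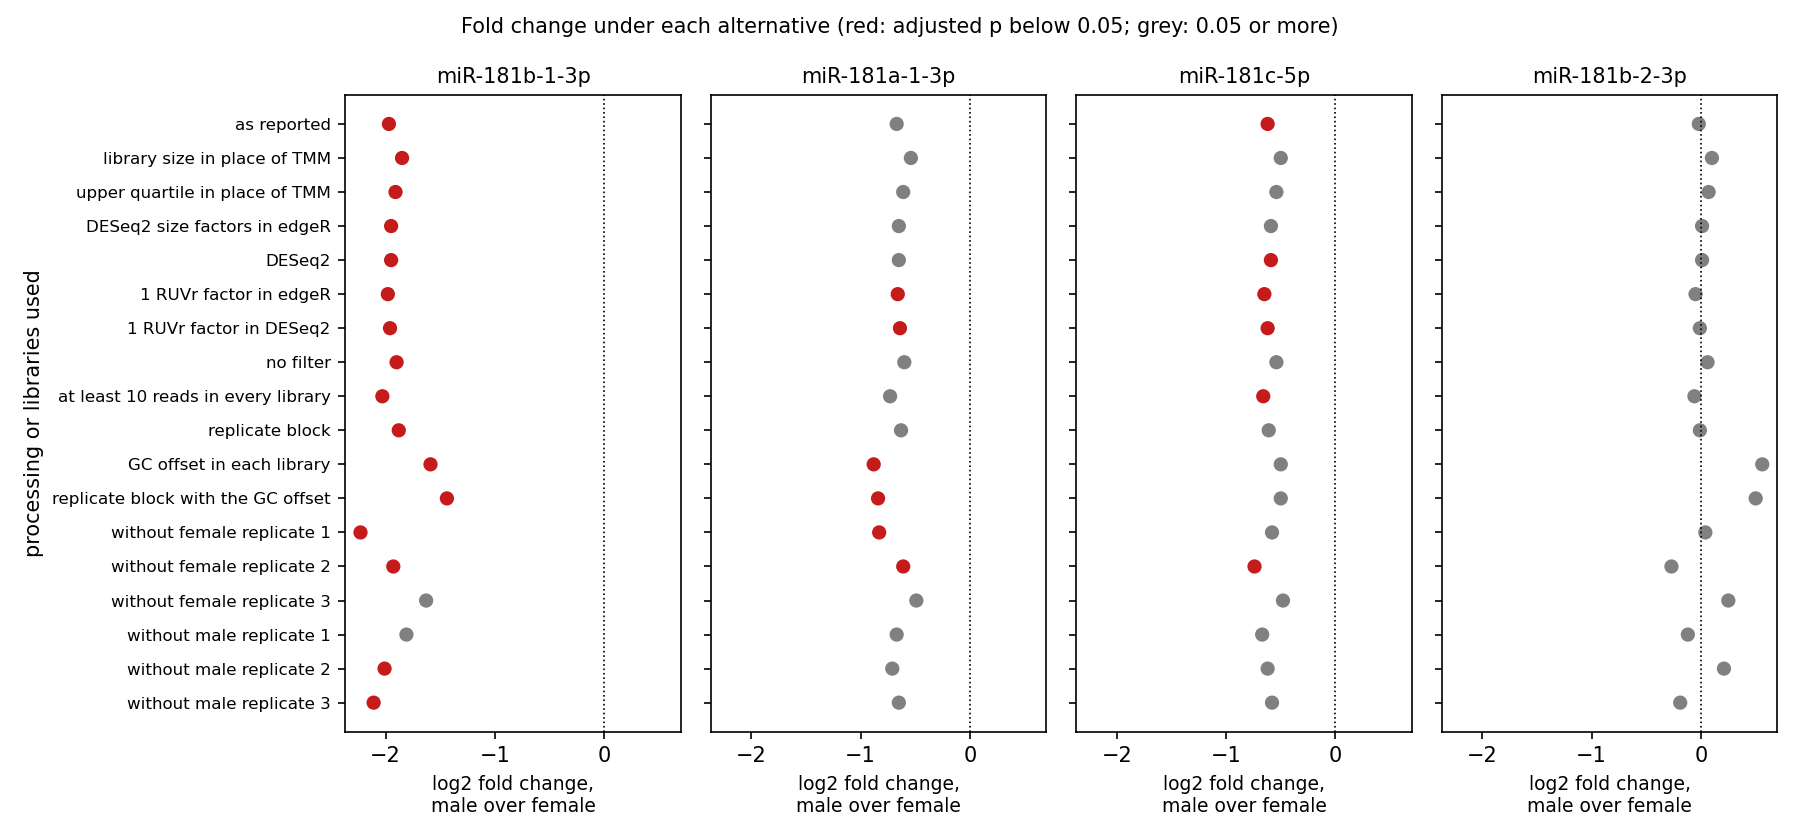
Log2 fold change, male over female, of 4 miR-181 arms under each processing alternative and without each of the 6 libraries, in red where the adjusted p is below 0.05 and in grey otherwise. miR-181b-1-3p stays between -2.23 and -1.44 and is red in 15 of 17 alternatives, whereas miR-181b-2-3p lies between -0.27 and 0.56.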

How the data were processed

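Small RNA-seq was performed on total RNA of 6 pools of E15.5 brains, 3 per sex. The authors trimmed adaptors with cutadapt 1.15, checked quality with FastQC, mapped reads with Bowtie 1.2.1 to miRBase v.21 sequences and mm9, and quantified known miRNAs in the miRDeep2 workflow. They deposited raw read counts per mature miRNA, without normalization. The mismatches allowed in mapping, and how a read that maps to several miRNAs was counted, are not given in the sources used here. No molecular identifiers are named, so the exact intervals of CPM cover counting error only. The intervals of log2 fold changes from edgeR and the p-values cover the spread between pools. No library was a copy of another, since at most 1 miRNA with over 100 reads had the same count in a pair.

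Counts were divided by the library total (CPM) for levels and ratios. Sex was tested with edgeR 4.0.16 (TMM, quasi-likelihood) in R 4.3.3 over the 1120 miRNAs with at least 10 reads in all, with Benjamini-Hochberg adjustment. SE was taken as the log2 fold change, without sign, divided by the root of F. DESeq2 1.42.0 was an alternative, as were other scalings and filters, 1 RUVr factor, a GC offset (951 miRNAs with a RefSeq sequence, 84.9%), a replicate block and each library left out. Likeness used log2 CPM with 0.5 reads added. The procedures were also run on simulated data. These held no unwanted factor, replicate effect or GC effect, so they do not test the RUVr, block and GC alternatives.

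The family and the lists were chosen with earlier results of these data known. The text names all members, listed brain miRNAs past the threshold, the neighbours of miR-181c/d, and the 3 miRNAs most like each summed arm type. Positions are from mm9 and GENCODE vM1, by exact match of the mature sequences.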

Additional observations from a re-analysis of the deposited data

How the results depend on the processing

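miR-181b-1-3p kept its direction in all 17 alternatives and its call in 15. The number of members called fell from 2 to 1 with library size, upper quartile or DESeq2 size factors in place of TMM, with no filter and with the replicate block, each time through miR-181c-5p. It was 2 with DESeq2 (11.5% of all miRNAs called) and with at least 10 reads in every library (17.6%), and 3 with 1 RUVr factor in either tool, with the GC offset (6.73%) and with the offset and the block (7.36%). With each library left out in turn it ranged from 0 (without female library 3 or male library 1) to 3 (without female library 2). The number called over all 1120 miRNAs rose from 95 to 189 with 1 RUVr factor in edgeR and 216 in DESeq2, and ranged from 30 of 1097 to 203 of 1110 with a library left out. No pairing by replicate number was seen, since deviations of same-numbered libraries correlated at -0.05, -0.01 and 0.05. With 3 libraries per sex, this cannot show that there was none. With the block, 92 miRNAs were called and miR-181c-5p had an adjusted p of 0.0505.

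miR-181b-2-3p changed sign, to 0.10 with library size, 0.07 with upper quartile, 0.01 with DESeq2 size factors and with DESeq2, 0.06 with no filter, 0.56 with the GC offset and 0.50 with the offset and the block, and ranged from -0.27 to 0.25 with a library left out. The difference in the ratio of miR-181a-1-3p to miR-181a-2-3p (0.06 on the log2 scale) ranged from -0.33 to 0.39 with a library left out (-0.05 without male library 1), and that of miR-181a-2-3p to miR-181b-2-3p (-0.69) ranged from -1.09 to 0.08, the latter without female library 2. The cause was not tested. Library size moved the median log2 fold change of all miRNAs from -0.02 to 0.11. The lowest counts, 120 reads for miR-181a-2-3p and 135 for miR-181b-2-3p in female library 1, limit these arms.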
